A study of Homo sapiens with 4 samples.

Results

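The 10 genes described here encode the mechanistic target of rapamycin complex 1 (mTORC1), part of the machinery that tells it whether nutrients are present, and several of its brakes. They are SESN2, SESN3, DDIT4, DEPTOR, FLCN, FNIP1, RRAGC, RRAGD, MTOR and RPTOR, taken by symbol from the 58736 features listed for each library. All 10 were found, and all 10 passed the filter on low values that left 16362 genes to test. The study used HEK293A, an established line of human embryonic kidney cells, to examine how FEN1, a nuclease that removes DNA flaps during replication and repair, regulates genes when guided by hairpin probes. Replicates 2 and 3 of NT1_hp2, named for its probe, were set against replicates 1 and 3 of the negative control, 2 libraries a group. In both groups each well first received FEN1 plasmid (1 µg), then after 48 h the probes (500 pmol), and RNA was prepared after 72 h. The sources used here name neither the target of NT1_hp2 nor the control probe. Whether replicates were separate cultures is not stated, so a p-value here reflects only the spread of these libraries, which could be technical.

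mTORC1 is a protein kinase complex that promotes protein synthesis and growth and restrains autophagy. When amino acids are plentiful, Rag GTPases, which work as pairs of RagA or RagB with RagC or RagD, bring it to the lysosome through its subunit raptor, and there the small GTPase RHEB switches it on. Folliculin with its partner FNIP1 acts on RagC and RagD, sestrins hold back the GATOR2 complex upstream of the Rags, DDIT4 (also called REDD1) acts through the TSC complex on RHEB, and DEPTOR binds mTOR itself. When folliculin or RagC/D activity is low, the transcription factors TFEB and TFE3 enter the nucleus and bind E-box elements in promoters of lysosomal genes.

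Of the 10 genes, FNIP1 alone passed the test as deposited, and it was higher in NT1_hp2 than in the negative control. It averaged 9.72 ± 0.300 FPKM in NT1_hp2 and 6.53 ± 0.391 FPKM in the negative control (SD, n = 2 each), which is 1.49 times as much. The other 9 did not pass with limma-trend, so that 1 was higher and 0 were lower, with the same counts at an unadjusted p under 0.05. Among all tested genes 5.0% were called higher and 8.92% lower (limma-trend, FPKM compared as log2(FPKM + 1), Benjamini-Hochberg adjusted p under 0.05), so that 1 gene of 10 is near the share among all genes. With limma-voom on the reads recovered from the FPKM values, 5 of the 10 were higher (SESN2, SESN3, FLCN, FNIP1 and RRAGD) and 0 lower, in a fit that called 20.6% of genes higher and 14.8% lower. The median log2 fold change over all genes was 0.07 in that fit, against −0.01 with limma-trend. Both NT1_hp2 libraries lay above both controls for 6 of the 10, as for 32.0% of all tested genes, and below both for 2, as for 34.8%. The change of several of the 10 depended on whether trends with GC content were left in the values, as described for each below. In bulk RNA, fewer cells with a transcript and less of it per cell cannot be told apart.

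Libraries held 13602537 to 13647614 reads in NT1_hp2 and 12506203 to 14908687 in the negative control, and 3 reads on a gene of 1 kilobase amount to 0.208 to 0.239 FPKM, a floor for counting error only. Mitochondrial genes took 4.33% and 4.29% of reads in NT1_hp2 and 6.06% and 5.92% in the negative control. The line was checked against marker genes. KRT8, KRT18, VIM and CDH2 were abundant, whereas the epithelial genes CDH1 and EPCAM and the kidney factor PAX2 stayed under 1 FPKM in every library. The kidney factors LHX1, at 1.73 to 2.18 FPKM, and SALL1, at 2.03 to 2.80 FPKM, were above 1 FPKM in every library. KRT18 fell to 54.9 ± 0.696 FPKM in NT1_hp2, against 73.2 ± 6.29 FPKM in the negative control, a log2 fold change of −0.41 (limma-trend adjusted p = 0.0440), and was at −0.10 and −0.18 after trend removal by principal transcripts and by summed exons, where it did not pass. KRT8 was at −0.30 and did not pass (limma-trend adjusted p = 0.0776). Of 15 markers of other cell types 13 stayed under 1 FPKM everywhere and PTPRC, CD3E and UMOD were listed at 0, with summed levels of 10.2 and 9.78 FPKM in NT1_hp2 and 10.7 and 11.3 FPKM in the negative control. Most of that sum was COL1A1, at 7.87 ± 0.0368 FPKM in NT1_hp2 and 8.36 ± 0.105 FPKM in the negative control, a difference of −0.08 (limma-trend adjusted p = 0.436). The part of the mitochondrial share and of the keratins in the differences of the 10 genes was not tested.

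The stretches upstream of FNIP1 and RRAGC are shown because both carry the E-box CACGTG, in capitals, and only the first of these genes passed the test. They are RefSeq sequence of GRCh38.p14 on the minus strand, written 5′ to 3′, and begin 250 bases before the RefSeq start site and end where the GENCODE 29 gene model begins. The FNIP1 stretch is chr5:131797064-131797267 and the RRAGC stretch is chr1:38859824-38860022.
FNIP1: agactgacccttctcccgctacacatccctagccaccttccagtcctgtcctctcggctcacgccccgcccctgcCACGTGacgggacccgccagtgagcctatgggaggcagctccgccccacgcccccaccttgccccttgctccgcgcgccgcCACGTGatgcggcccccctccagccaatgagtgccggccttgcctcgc
RRAGC: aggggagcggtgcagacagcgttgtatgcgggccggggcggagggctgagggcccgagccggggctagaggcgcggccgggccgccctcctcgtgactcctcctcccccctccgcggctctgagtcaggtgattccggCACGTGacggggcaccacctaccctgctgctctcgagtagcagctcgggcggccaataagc

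RefSeq promoters of 8 of the 10 genes were looked at, and RRAGD and DEPTOR were left out. In the 250 bases before the start site, CACGTG, which reads the same on both strands, occurred in 2 of the 8 (FNIP1 and RRAGC) and in 6.34% of 35116 promoters. The FNIP1 copies begin 175 and 94 bases before the RefSeq start and the RRAGC copy 112 bases before it. The longer form CACGTGAC, which contains the E-box and was searched on both strands, was found once in each of the same promoters and in 2.16% of all promoters. TGATGNAA, the letters of an ATF4 and C/EBP response element, was found on neither strand in the 8 and in 3.14% of all promoters. ACGTG, the core of the hypoxia element and also part of CACGTG, was present in DDIT4, FNIP1 and RRAGC and in 18.5% of all promoters. These matches describe the letters of the windows and do not show binding.

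**Figure D1:**
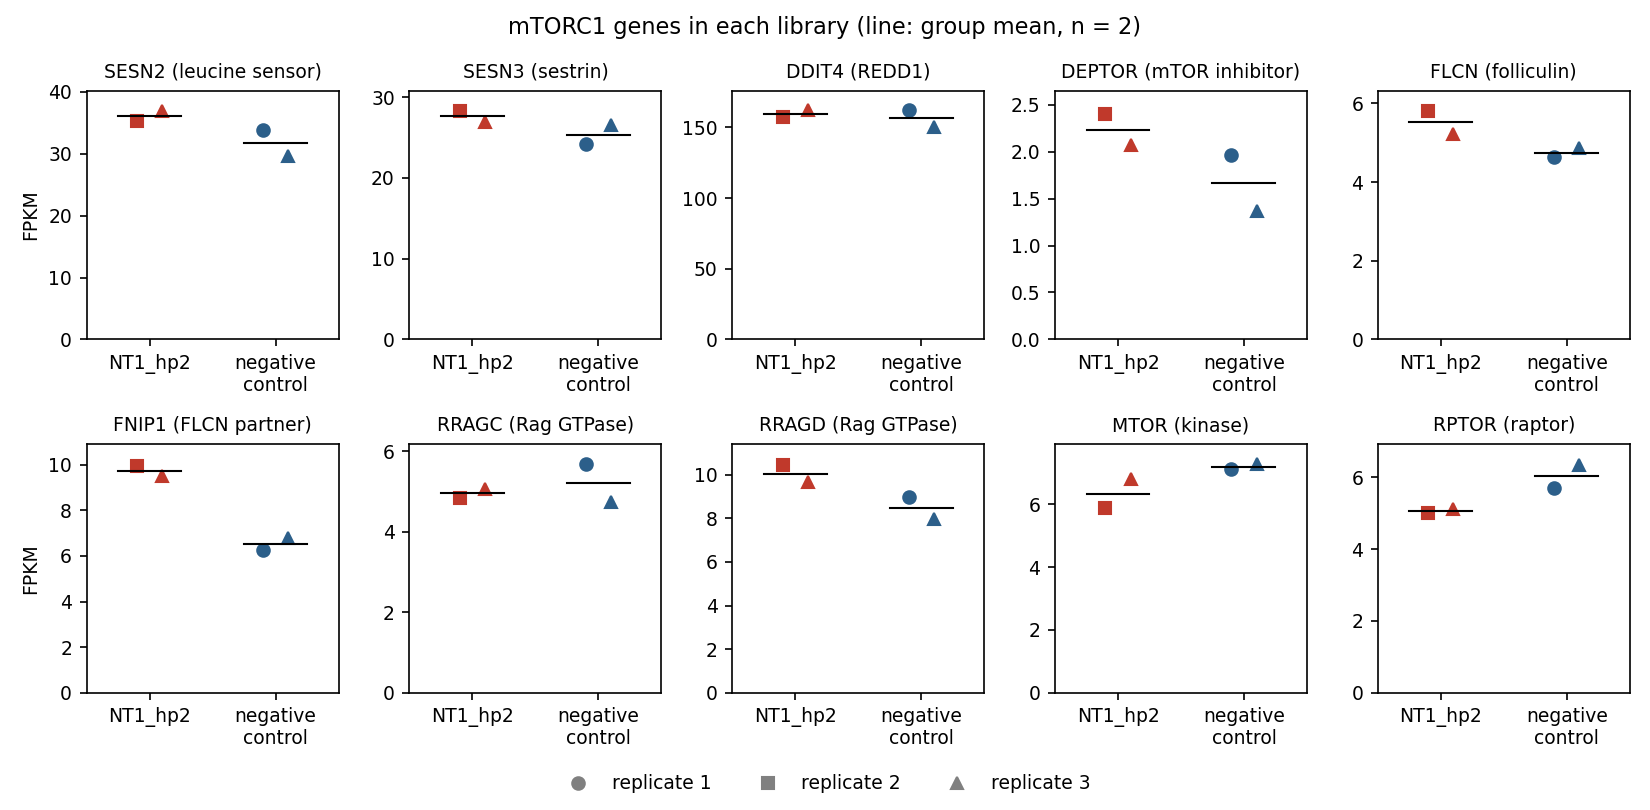
Level of each of the 10 genes in FPKM in the 4 libraries, with NT1_hp2 left of the negative control, 1 point per library, point shape for the replicate number and a line at the group mean; each vertical axis starts at 0. FNIP1 lay between 9.51 and 9.93 FPKM in NT1_hp2 and between 6.25 and 6.80 FPKM in the negative control, whereas the DDIT4 points of both groups overlapped.

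The order of the levels, in FPKM, was led by the brakes in both groups. DDIT4 was the most abundant at 159.8 ± 3.70 FPKM in NT1_hp2 and 157 ± 8.46 FPKM in the negative control (SD, n = 2 each). SESN2 and SESN3 came next and DEPTOR was last, at 2.24 ± 0.237 FPKM in NT1_hp2 and 1.66 ± 0.420 FPKM in the negative control. Between them lay RRAGD, FNIP1, MTOR, FLCN, RPTOR and RRAGC in NT1_hp2, where RRAGD overlapped FNIP1 and RPTOR overlapped RRAGC in their libraries' values. In the negative control the order was RRAGD, MTOR, FNIP1, RPTOR, RRAGC and FLCN, with FNIP1 overlapping RPTOR and RRAGC overlapping FLCN. FPKM here is per summed exon length, which for FLCN is 2.69 times and for FNIP1 2.07 times the length of the principal transcript, so these levels would be higher per principal transcript.

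SESN2 encodes a stress-inducible leucine sensor. It stood at 35.3 and 36.9 FPKM in NT1_hp2 replicates 2 and 3, against 33.9 and 29.6 FPKM in negative control replicates 1 and 3. Both NT1_hp2 libraries were above both controls, and the control libraries differed more from each other than the nearer one did from NT1_hp2. The log2 fold change was 0.18 (SE 0.086, 95% interval −0.04 to 0.40, limma-trend adjusted p = 0.199), and it was 0.09 without negative control replicate 3 and 0.28 without negative control replicate 1. With smooth trends of length and GC content removed from each library it was 0.42 by principal transcripts (limma-trend adjusted p = 0.00158) and 0.47 by summed exons (0.0377), and it passed in both. Its longest transcript is 59.5% G or C, in the GC-richest quartile of tested genes.

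SESN3, a sestrin of the same family, stood at 28.3 and 26.9 FPKM in NT1_hp2 replicates 2 and 3, against 24.2 and 26.5 FPKM in negative control replicates 1 and 3. The highest control lay just under the lowest NT1_hp2 library. The log2 fold change was 0.12 (SE 0.075, 95% interval −0.07 to 0.31, limma-trend adjusted p = 0.298), and it was 0.06 without negative control replicate 1 and 0.19 without negative control replicate 3. Removal of the trends turned its direction, to −0.17 by principal transcripts, past the threshold by a small margin (limma-trend adjusted p = 0.0497), and to −0.15 by summed exons (0.129). SESN3 has 37.1% G or C, in the GC-poorest quartile. SESN1, the remaining sestrin, averaged 16.8 ± 0.794 FPKM in NT1_hp2 and 16.5 ± 0.354 FPKM in the negative control, a log2 difference of 0.02 (limma-trend adjusted p = 0.866).

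DDIT4 encodes a brake induced by hypoxia and stress. It stood at 157 and 162 FPKM in NT1_hp2 replicates 2 and 3, against 163 and 151 FPKM in negative control replicates 1 and 3. The groups overlapped, with a log2 fold change of 0.03 (SE 0.078, 95% interval −0.17 to 0.23, limma-trend adjusted p = 0.813). That interval leaves out a doubling, which would be about 1 on this scale. After trend removal the log2 fold change was 0.30 by principal transcripts (limma-trend adjusted p = 0.00311) and 0.32 by summed exons (0.0528). Exons of the antisense gene DDIT4-AS1 cover 41.2% of its exon length, and the library kit does not mark strand. DDIT4-AS1 itself was listed at 0 in all 4 libraries. As the counter is not named, that 0 does not show how reads in the shared bases were assigned, nor whether antisense RNA was present.

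A list of stress factors and related stress-responsive genes, not all of them inputs to these brakes, held larger differences than that of DDIT4. DDIT3, the stress factor CHOP, averaged 81.5 ± 0.461 FPKM in NT1_hp2 and 35.5 ± 1.48 FPKM in the negative control, and TRIB3, a pseudokinase of the same stress response, rose by 1.04 on the log2 scale (limma-trend adjusted p = 0.0340). HIF1A, the oxygen-regulated transcription factor, rose by 0.30 (limma-trend adjusted p = 0.0455), and NDRG1, a hypoxia-inducible gene, rose by 0.53 (0.0340). Of the 8 genes on that list 4 were higher and 1, the cell cycle inhibitor CDKN1A, was lower, beside 5.0% and 8.92% of all tested genes. CDKN1A was at −0.48 as deposited (limma-trend adjusted p = 0.0489). After trend removal HIF1A passed neither by principal transcripts (log2 fold change 0.12, limma-trend adjusted p = 0.177) nor by summed exons (0.10, 0.324). CDKN1A passed by principal transcripts (−0.23, limma-trend adjusted p = 0.0229) and not by summed exons (−0.20, 0.126). Exons of MARS on the other strand cover 27.2% of those of DDIT3.

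DEPTOR, an inhibitory subunit of mTOR complexes, stood at 2.40 and 2.07 FPKM in NT1_hp2 replicates 2 and 3, against 1.96 and 1.37 FPKM in negative control replicates 1 and 3. These rested on 89 and 77 reads in NT1_hp2 and 74 and 45 reads in the negative control, the fewest of the 10 genes. Both NT1_hp2 libraries were above both controls, but the log2 fold change of 0.29 had a wide error (SE 0.16, 95% interval −0.13 to 0.70, limma-trend adjusted p = 0.260). It was 0.26 and 0.31 after trend removal, 0.50 by limma-voom, 0.13 when negative control replicate 3 was left out and 0.45 when its replicate 1 was, and passed in none of these.

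FNIP1 (ENSG00000217128, chromosome 5, 131641714 to 131797063, minus strand, GRCh38) encodes a partner of folliculin in its action on RagC and RagD. It stood at 9.93 and 9.51 FPKM in NT1_hp2 replicates 2 and 3, against 6.25 and 6.80 FPKM in negative control replicates 1 and 3, from 1114 and 1072 reads and 715 and 679 reads. The gap between the groups was several times the spread within either of them. The log2 fold change was 0.51 (SE 0.075, 95% interval 0.32 to 0.70, limma-trend adjusted p = 0.0340). FNIP1 is GC-poor, at 38.9%, and genes of the GC-poorest quartile had a median log2 fold change of 0.20. With trends removed by principal transcripts, in 12148 genes, it was 0.40 and passed (limma-trend adjusted p = 0.00523). By summed exons, in 16350 genes, it was 0.30 and did not (limma-trend adjusted p = 0.0663). The call was also lost without the filter on low values (limma-trend adjusted p = 0.134) and without any 1 library (0.0611 to 0.188), fits in which almost no gene passed.

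FLCN, which encodes folliculin itself, stood at 5.80 and 5.23 FPKM in NT1_hp2 replicates 2 and 3, against 4.63 and 4.86 FPKM in negative control replicates 1 and 3. The groups did not overlap, with a log2 fold change of 0.18 (SE 0.085, 95% interval −0.04 to 0.40, limma-trend adjusted p = 0.195). FLCN has 55.8% G or C, and exons of AC055811.2 on the same strand cover 11.9% of its exon length. After trend removal FLCN was at 0.35 by principal transcripts and passed (limma-trend adjusted p = 0.0202), while by summed exons it was at 0.30 and did not (0.128). FNIP2, the paralogue of FNIP1, averaged 2.59 ± 0.385 FPKM in NT1_hp2 and 2.42 ± 0.190 FPKM in the negative control, a log2 difference of 0.06 (limma-trend adjusted p = 0.749).

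RRAGC and RRAGD encode the GTPases RagC and RagD, on which folliculin acts. RRAGD stood at 10.5 and 9.67 FPKM in NT1_hp2 replicates 2 and 3, against 8.996 and 7.97 FPKM in negative control replicates 1 and 3. Its groups did not overlap, and the log2 fold change was 0.22 (SE 0.087, 95% interval −0.0004 to 0.45, limma-trend adjusted p = 0.135). It was 0.08 by principal transcripts and 0.12 by summed exons after trend removal, without passing. RRAGC stood at 4.85 and 5.07 FPKM in NT1_hp2 replicates 2 and 3, against 5.69 and 4.74 FPKM in negative control replicates 1 and 3. Exons of AL139260.2, listed at 0 in all 4 libraries, lie on the same strand and cover 22.9% of the RRAGC exon length. Whether reads in those bases were left out of the RRAGC values was not tested. Both NT1_hp2 values of RRAGC lay within the range of the controls, and its log2 fold change of −0.06 (SE 0.10, 95% interval −0.32 to 0.21, limma-trend adjusted p = 0.729) was 0.0087 when libraries were scaled to their totals.

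MTOR encodes the kinase and RPTOR encodes raptor, the subunit that defines complex 1. MTOR stood at 5.90 and 6.80 FPKM in NT1_hp2 replicates 2 and 3, against 7.13 and 7.28 FPKM in negative control replicates 1 and 3. RPTOR stood at 5.00 and 5.12 FPKM in NT1_hp2 replicates 2 and 3, against 5.70 and 6.35 FPKM in negative control replicates 1 and 3. For both genes each control was above both NT1_hp2 libraries, and neither passed. The log2 fold change of MTOR was −0.16 (SE 0.088, 95% interval −0.39 to 0.07, limma-trend adjusted p = 0.248) and was −0.15 in both trend removals, −0.09 with library totals and −0.25 to −0.07 without 1 library, smallest without NT1_hp2 replicate 2. That of RPTOR was −0.21 (SE 0.083, 95% interval −0.43 to 0.004, limma-trend adjusted p = 0.140) and moved to −0.02 in both, from a transcript with 59.8% G or C.

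**Figure D2:**
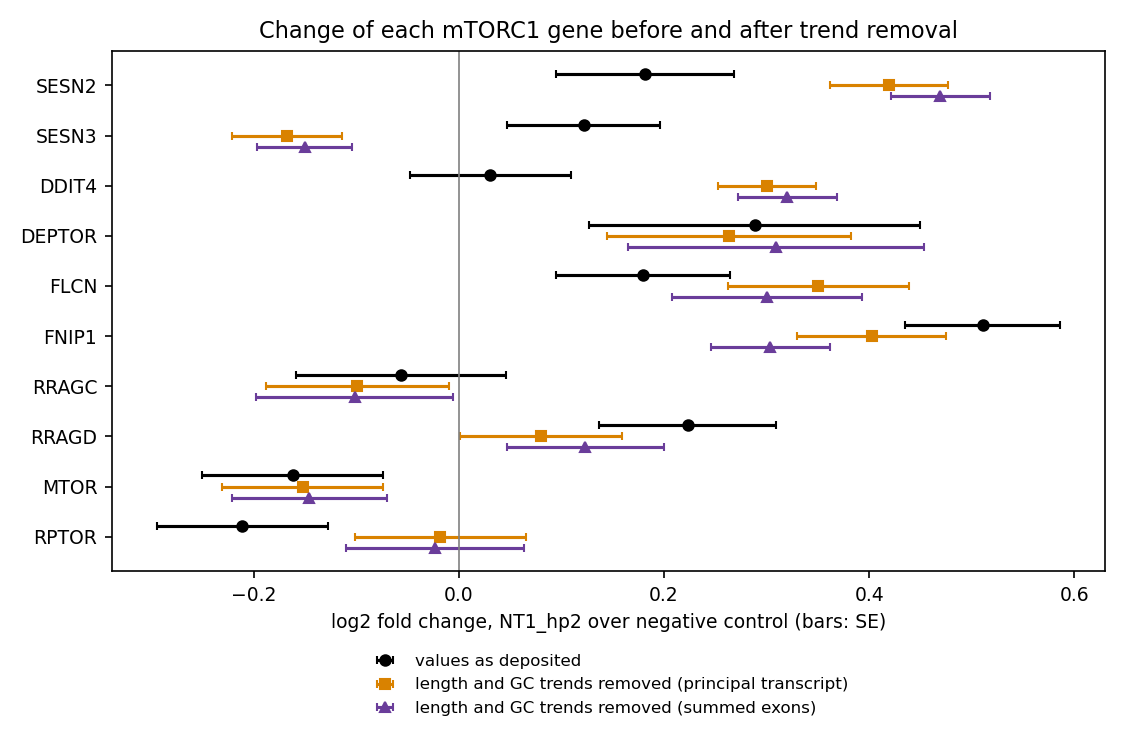
Log2 fold change of each of the 10 genes, NT1_hp2 over negative control, on the horizontal axis, with bars for the standard error; circles are values as deposited, squares and triangles are values with length and GC trends taken out by principal transcripts and by summed exons. SESN2 moved from 0.18 as deposited to 0.42 and 0.47, RPTOR from −0.21 to −0.02 in both, and SESN3 changed sign.

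Over all tested genes the change followed GC content. The median log2 fold change of the GC-poorest quartile (up to 41.8% G or C) was 0.20, with 12.01% of its genes called higher and 0.978% lower, and that of the GC-richest quartile (55.9% and above) was −0.28, with 0.685% higher and 23.8% lower. The 10 genes cover both ends, with SESN3 and FNIP1 in the GC-poorest quartile and SESN2, DDIT4 and RPTOR in the GC-richest. Within the GC-richest quartile SESN2, at 0.18, and DDIT4, at 0.03, lay above the quartile's median while RPTOR, at −0.21, lay near it. After trend removal by principal transcripts 4 of the 10 passed as higher (SESN2, DDIT4, FLCN and FNIP1) and 1 as lower (SESN3), where 10.8% and 12.4% of the 12148 genes in that fit did. By summed exons SESN2 alone passed, where 0.752% of the 16350 genes were higher and 1.07% lower. The 2 fits differ in the genes tested and in the lengths and GC contents used, so passing in only 1 of them is not by itself a difference in effect. DDIT4 had an SE of 0.048 in both, at 0.30 and 0.32. Among 12149 protein-coding genes without trend removal FNIP1 kept 0.51, at a limma-trend adjusted p of 0.000927. What gives rise to the GC trend was not tested.

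**Figure D3:**
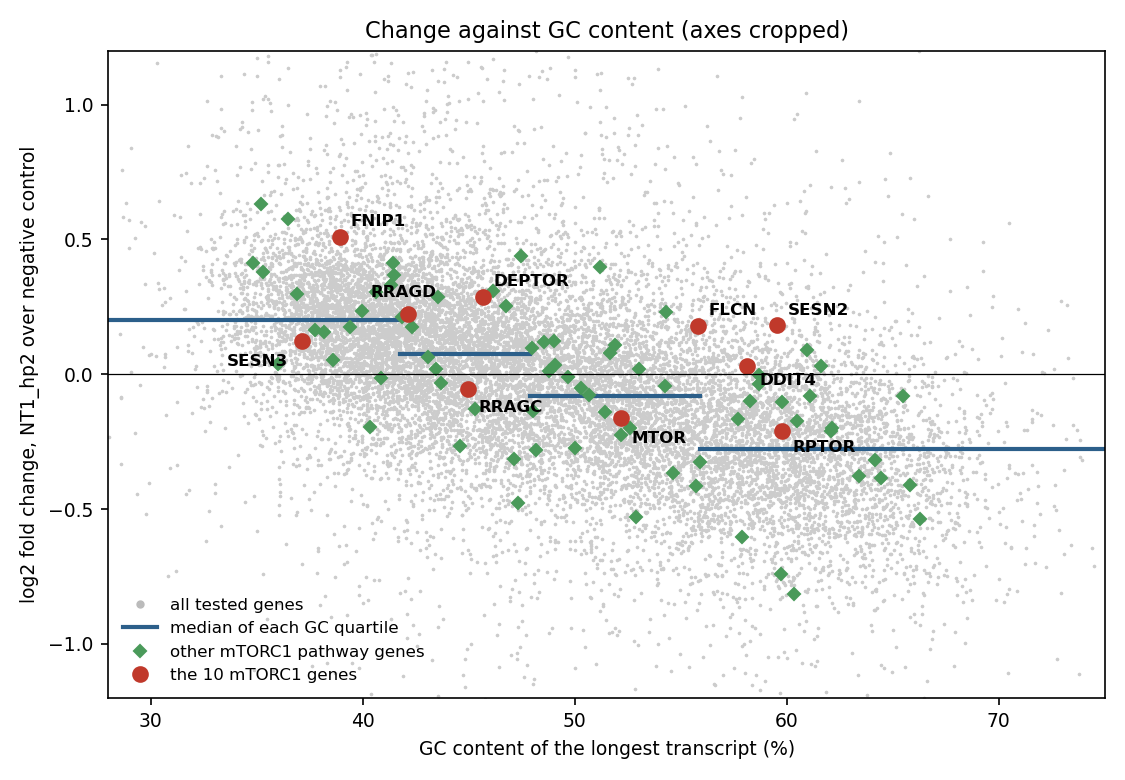
Log2 fold change, NT1_hp2 over negative control, against GC content of the longest transcript in percent, for all tested genes (grey), 74 other genes of the mTORC1 pathway (green diamonds) and the 10 genes (red, named); blue lines mark the median of each GC quartile, and both axes leave out the most extreme genes. The quartile medians run from 0.20 at low to −0.28 at high GC content, and SESN2 lies at 0.18 among genes with 59.5% G or C.

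Shares between related genes within a library do not depend on how libraries are scaled. RRAGD took 68.3% and 65.6% of the summed FPKM of RRAGC and RRAGD in NT1_hp2 replicates 2 and 3, against 61.3% and 62.7% in negative control replicates 1 and 3. FNIP1 took 81.1% and 76.9% of FNIP1 and FNIP2 in NT1_hp2, against 73.2% and 72.7% in the negative control. In both pairs the NT1_hp2 libraries had the higher share of the first gene. SESN2 took 43.6% and 46.1% of the 3 sestrins in NT1_hp2, against 45.3% and 40.9% in the negative control, and these overlapped.

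Raptor and rictor define the complexes mTORC1 and mTORC2, and their mRNAs had, as deposited, the largest difference in share of the 4 sets compared. RPTOR took 26.9% and 28.2% of the summed FPKM of RPTOR and RICTOR in NT1_hp2 replicates 2 and 3, against 41.8% and 40.5% in negative control replicates 1 and 3, a difference of −13.6 percentage points. After trend removal by summed exons it was −5.15 points, RPTOR being GC-rich and RICTOR GC-poor at 36.5%. The exact two-sided permutation test over libraries gave p = 0.333 for RRAGD, FNIP1 and RPTOR and 0.667 for SESN2, and 0.333 is the smallest p that 2 against 2 libraries allow.

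**Figure D4:**
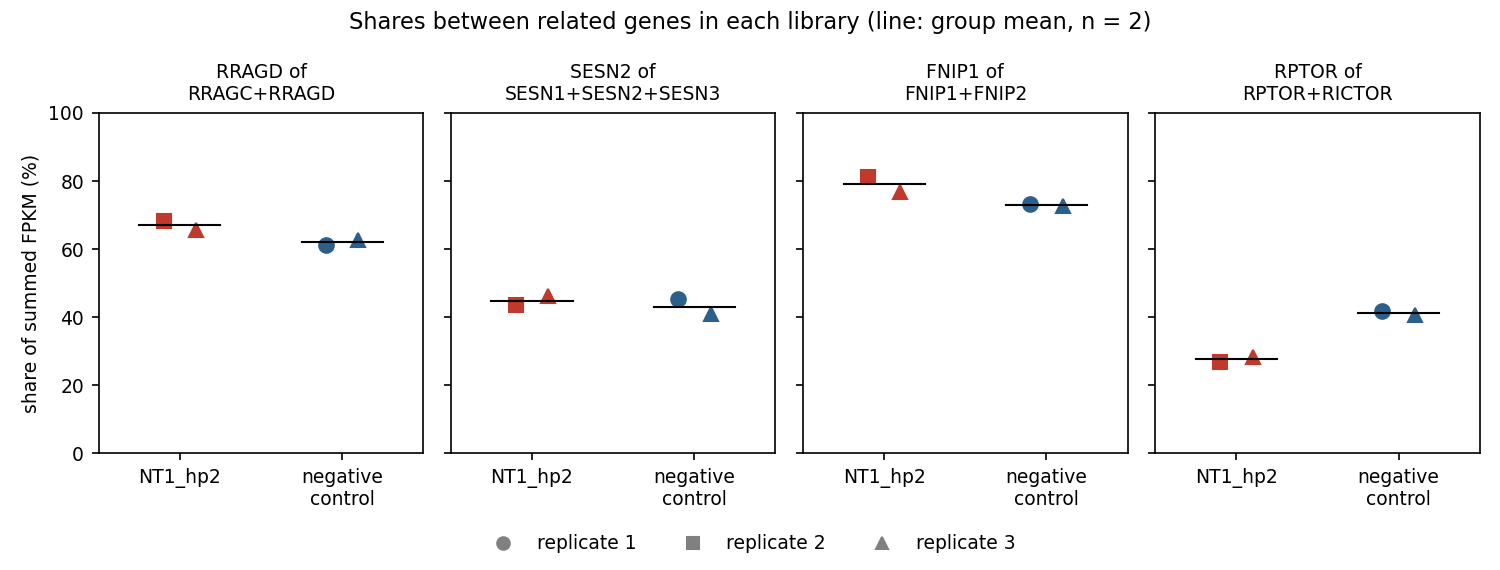
Share of summed FPKM, in percent, of RRAGD among RRAGC and RRAGD, SESN2 among the 3 sestrins, FNIP1 among FNIP1 and FNIP2, and RPTOR among RPTOR and RICTOR, 1 point per library with NT1_hp2 left of the negative control and a line at the group mean. The RPTOR share was 26.9% and 28.2% in NT1_hp2 and 41.8% and 40.5% in the negative control.

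The genes around these 10 were examined in 11 lists of 77 genes, of which 74 were tested. In NT1_hp2 8 of the 74 were higher and 6 lower, where 5.0% and 8.92% of all tested genes were. The counts per list that follow stand beside the same shares. The median log2 fold change of the 74 was −0.01, against −0.01 over all tested genes and 0.15 over the 10. The 8 that rose have 34.8% to 51.2% G or C and the 6 that fell have 57.9% to 66.3%. After trend removal by principal transcripts 11 were higher and 7 lower, where 10.8% and 12.4% of all genes in that fit were. By summed exons 0 were higher and 1, AKT1S1, was lower, where 0.752% and 1.07% of all genes were.

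Among the other subunits and assembly factors of the mTOR complexes, 1 of 9 rose and 3 fell. AKT1S1, which encodes the mTORC1 inhibitor PRAS40, fell to 6.53 ± 0.576 FPKM in NT1_hp2, against 12.3 ± 1.05 FPKM in the negative control (SD, n = 2 each), at a log2 fold change of −0.82 with an SE of 0.096 (limma-trend adjusted p = 0.0340). It passed in both trend removals, at −0.46 by principal transcripts (limma-trend adjusted p = 0.00214) and −0.55 by summed exons (0.0425). RICTOR, the defining subunit of mTORC2, rose to 13.3 ± 0.374 FPKM in NT1_hp2, against 8.63 ± 0.989 FPKM in the negative control. TELO2, which helps assemble mTOR kinases, fell by 0.54 on the log2 scale and MLST8, a subunit of both complexes, fell by 0.38 (limma-trend adjusted p = 0.0356 for TELO2 and 0.0477 for MLST8). After trend removal by principal transcripts MLST8 was at −0.03 and did not pass, whereas RICTOR, at 0.28, and TELO2, at −0.21, did. By summed exons RICTOR, at 0.28, and TELO2, at −0.19, did not pass.

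The Ragulator complex anchors the Rags at the lysosome, and 1 of the 8 genes of Ragulator, the other Rags and the lysosomal arginine sensor SLC38A9 fell. That was LAMTOR4, at 12.1 ± 0.1998 FPKM in NT1_hp2 and 21.0 ± 3.02 FPKM in the negative control, a log2 fold change of −0.74 (limma-trend adjusted p = 0.0340). It passed at −0.30 after trend removal by principal transcripts (limma-trend adjusted p = 0.0102) and not at −0.43 by summed exons (0.0562). The list's median was −0.32, and −0.11 after trend removal by principal transcripts. Exons of C7orf43 on the other strand cover 18.4% of the LAMTOR4 exons.

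Of 4 tested genes among the other nutrient sensors 1 rose, LARS, the leucyl-tRNA synthetase also described as a leucine sensor. It averaged 25.2 ± 1.30 FPKM in NT1_hp2 and 19.3 ± 0.8297 FPKM in the negative control, a log2 fold change of 0.37 (limma-trend adjusted p = 0.0416). After trend removal LARS was at 0.22 by principal transcripts and passed (limma-trend adjusted p = 0.0251). By summed exons it was at 0.21 and did not (limma-trend adjusted p = 0.0884). Of the 21 tested genes of GATOR1, GATOR2, KICSTOR, the TSC complex with RHEB, and the MiT/TFE factors with FLCN partners, 0 passed limma-trend. An unadjusted p under 0.05 was reached by 1 higher and 4 lower, and by 6061 of all 16362 tested genes. Limma-voom called 5 higher and 1 lower, beside 20.6% and 14.8% of all genes in that fit. Their most abundant members were NPRL3 at a log2 difference of 0.03, SEC13 at −0.27, KPTN at −0.08, RHEB at 0.10 and TFE3 at −0.10.

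Of 11 mRNAs for mTORC1 substrates 3 rose and 1 fell. GRB10, an adaptor that dampens insulin signalling, rose to 9.61 ± 0.367 FPKM in NT1_hp2, against 7.04 ± 0.163 FPKM in the negative control, LPIN1, the phosphatidate phosphatase lipin 1, rose by 0.44 on the log2 scale, and PATL1, an mRNA decay factor, rose by 0.31 (limma-trend adjusted p = 0.0370 for GRB10, 0.0362 for LPIN1 and 0.0408 for PATL1). RPS6KB2, a ribosomal S6 kinase, fell to 10.2 ± 0.811 FPKM in NT1_hp2, against 15.97 ± 1.63 FPKM in the negative control. All 4 passed after trend removal by principal transcripts and none did by summed exons, where their limma-trend adjusted p was 0.0524 to 0.0662 in a fit that called 298 genes in all. By summed exons the log2 fold change was 0.42 for GRB10, 0.36 for LPIN1, 0.30 for PATL1 and −0.38 for RPS6KB2, beside 0.40, 0.44, 0.31 and −0.60 as deposited.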

How the data were processed

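RNA levels were measured in 4 libraries of HEK293A cells, 2 per group, grouped by sample title. The authors deposited 1 value per gene, taken as FPKM (reads per exon length and library size) because multiplied by the summed exon length in GENCODE 29 all values above 0 of the 58735 features found there were whole multiples of 1 step per library (100% within 0.01 reads), which gave the reads behind them. Neither aligner nor counter is named in the sources used here. The build is GRCh38.p12 per the submitters' processing notes, and the library kit named in the labels' protocols does not mark strand.

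After a filter of 1 FPKM or more in 2 or more libraries, log2(FPKM + 1) values, which understate changes of low genes, were compared with limma 3.58.1 (trend, robust) in R 4.3.3, with Benjamini-Hochberg adjustment over all tested genes. The code was also run on simulated data that held no GC trend, which checks the code and not the calls made here. Trends were removed per library with smooth terms for log length and GC content (mgcv 1.9.3). Alternatives were other scalings, limma-voom, other filters, pseudocount and shrinkage, and omission of each library. Promoters are RefSeq sequences of GRCh38.p14. The 10 genes, the lists and the alternatives were chosen with earlier results of these data known. Named genes are the 10, their related genes in the shares, and from each list up to 4 called genes with the smallest p or else the most abundant one; further genes were chosen after values were seen.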

Additional observations from a re-analysis of the deposited data

How the results depend on the processing

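No paired analysis was possible because the groups share only replicate number 3. Median-of-ratios and upper-quartile scaling, no robust shrinkage and a pseudocount of 0.1 kept every direction and call of the 10 genes and moved no count by over 1.5 times. Over all genes 818 were higher and 1460 lower. The higher count was 1529 with library totals, 3369 with limma-voom, 1623 with at least 1 CPM in all libraries, 1778 among protein-coding genes, 1309 and 123 with length and GC trends removed by principal transcripts and by summed exons, and 0 without the filter. The lower count was 2416 with limma-voom, 2571 with at least 1 CPM, 2938 among protein-coding genes, 175 after the summed-exon removal and 0 without the filter. Those fits with 0 calls still held 6778 genes at an unadjusted p under 0.05 without the filter, and 3315 to 5836 without 1 library, where limma-trend called 0 higher and 0 to 1 lower and the lone library of a group was assumed to vary like the others. Of the 10 genes, 5 were higher with limma-voom, 4 higher and 1 lower after the principal-transcript removal, and 0 higher without the filter or any 1 library. Of the pathway genes, 23 were higher and 12 lower with limma-voom, 13 and 15 among protein-coding genes, 14 lower with at least 1 CPM, 0 and 1 after the summed-exon removal, and 0 and 0 without the filter or any 1 library.

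With limma-voom the log2 fold changes of SESN2 (0.26), SESN3 (0.21), FLCN (0.30) and RRAGD (0.32) passed. The median over all genes was 0.07 in that fit and 0.05 with library totals, against −0.01 as deposited. With trends removed by principal transcripts SESN2 (0.42), DDIT4 (0.30) and FLCN (0.35) passed and SESN3 turned to −0.17, while by summed exons SESN2 was at 0.47, SESN3 at −0.15 and FNIP1 at 0.30. FNIP1 kept 0.51 without the filter and lost its call, and was 0.46 to 0.56 without 1 library. RRAGC turned to 0.0087 with library totals and 0.0060 with limma-voom, and was −0.17 to 0.053 without 1 library, above 0 without negative control replicate 1. DDIT4 was −0.024 to 0.085 without 1 library, below 0 without negative control replicate 3. Without 1 library FLCN was 0.12 to 0.24, RRAGD 0.15 to 0.30 and RPTOR −0.28 to −0.14, and none of them passed. The SESN2 share differed by 10.2 percentage points after the summed-exon removal and by −0.46 to 3.93 without 1 library, below 0 without negative control replicate 3. The RPTOR share differed by −12.3 points in recovered reads and −5.15 after the summed-exon removal. The cause of these shifts was not tested. DEPTOR, with 45 to 89 reads, is the gene of the 10 whose depth limits precision most.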

Other observations

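Genes that feed energy and growth factor signals to mTORC1 were also examined, beside 5.0% higher and 8.92% lower among all tested genes. Of 9 genes of AMPK and its activator LKB1, 2 rose and 1 fell. PRKAA2, which encodes the catalytic α2 subunit of the energy sensor AMPK, rose to 10.1 ± 0.433 FPKM in NT1_hp2, against 6.19 ± 0.421 FPKM in the negative control (SD, n = 2 each), a log2 fold change of 0.63 (limma-trend adjusted p = 0.0340). PRKAA1, the α1 subunit, rose to 28.3 ± 0.374 FPKM in NT1_hp2, against 21.5 ± 0.648 FPKM in the negative control. STK11, which encodes LKB1, fell to 17.3 ± 0.641 FPKM in NT1_hp2, against 23.3 ± 0.392 FPKM in the negative control. Both AMPK genes are GC-poor, PRKAA2 at 35.2% and PRKAA1 at 35.3% G or C, and STK11 is GC-rich at 65.8%. After trend removal by principal transcripts PRKAA2, at 0.31, passed (limma-trend adjusted p = 0.0125), and PRKAA1, at 0.11, and STK11, at −0.10, did not. By summed exons PRKAA2, at 0.36 (limma-trend adjusted p = 0.0554), PRKAA1, at 0.15, and STK11, at −0.13, did not pass.

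Of 12 tested genes of the insulin, PI3K and AKT input 1 rose, PIK3CA, which encodes the p110α catalytic subunit, at 4.04 ± 0.0361 FPKM in NT1_hp2 and 2.79 ± 0.0796 FPKM in the negative control (limma-trend adjusted p = 0.0441). It was at 0.09 after trend removal by principal transcripts and did not pass (0.510). Exons of KCNMB3 on the other strand cover 35.8% of its exons.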
